A study of Rattus norvegicus with 30 samples.

Results

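The 150 genes with the largest cortical enrichment in sham-operated rats were followed through 3 brain areas after traumatic brain injury (TBI). The rule took CPM (a gene's count scaled to a common library total) and kept the 11471 of 26404 genes with a median of at least 5 CPM in the cortex of the sham rats. The genes were then chosen by the ratio, in descending order, of the cortical median plus 0.5 to the larger of the thalamic and hippocampal medians plus 0.5. The rank in that order names each gene here, because the tables hold Ensembl identifiers and none of them could be paired with a gene name.

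The libraries came from adult male Sprague-Dawley rats 3 months after lateral fluid-percussion injury, in which a fluid pulse strikes the exposed dura over the left parietal lobe. Rats 1 to 5 were sham-operated, with anaesthesia and the craniectomy but no impact, and rats 6 to 10 received the impact (TBI). The labels name no altered genotype and no compound for either group. Polyadenylated RNA of the perilesional cortex, the thalamus of the same side and the dorsal hippocampus, dissected as dentate gyrus with part of CA3, was sequenced from each rat, giving 30 libraries with 5 rats per group and area. The same 10 rats gave all areas, and each library stood for 1 animal.

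The neocortex is built of layers of excitatory projection neurons with a smaller population of inhibitory interneurons, and much of what separates it from thalamus and hippocampus in RNA is carried by neuronal genes that define layers and projection types. The thalamus relays sensory input to the cortex, and the dentate gyrus is dominated by densely packed granule cells. In bulk tissue, fewer cells of a type and less RNA per cell cannot be told apart. Whether the 150 genes are neuronal could not be checked, since marker lists need gene names.

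Library totals ran from 21992859 to 31799879 counts, and the 150 genes held 0.817 to 1.48% of them in the cortex, 0.294 to 0.675% in the thalamus and 0.196 to 0.509% in the hippocampus. The hippocampal libraries of sham rats 4 and 5 stood apart, with 44.1 and 40.9% of their counts in 10 genes. The hippocampal libraries labelled rat 3 (sham) and rat 8 (TBI) went against their labels. Of 263 genes called between the other 8 hippocampal libraries, the library labelled sham rat 3 was nearer the TBI mean for 232 and the library labelled TBI rat 8 nearer the sham mean for 216. Counts of hippocampal calls by edgeR and the hippocampal fold changes of single genes discussed at length are therefore given with and without these libraries. If the thalamus was read on another sequencer, as the study's methods state and the labels do not, area and sequencing cannot be told apart for it.

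Among the 150 genes the ratio ran from 2.43 to 31.8 with a median of 3.44, which the rule itself set. It exceeded 10 for 6 genes and 5 for 41 genes, and it was below 3 for 49. The last genes inside stood at 2.441, 2.438 and 2.432, and the next genes outside at 2.424, 2.420 and 2.416, so the boundary separates near neighbours. Their cortical sham medians spanned 5.01 to 3520 CPM with a median of 21.7, against medians of 3.32 in the thalamus and 4.01 in the hippocampus. The larger of the other areas was the hippocampus for 88 genes and the thalamus for 62. Some were nearly absent elsewhere: 27 were below 1 CPM in the thalamus, 25 in the hippocampus and 16 in both. A single gene, ranked 94, held 24.1% of their cortical counts, and the 5 most counted held 55%, so sums over the genes describe these few.

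The gene ranked 1 had the largest ratio. After TMM scaling (edgeR's correction of library totals for composition), its cortical level in sham rats 1 to 5 was 26.5, 25.4, 22.6, 25.3 and 18.9 CPM. In their thalamus it was 0.194, 0.110, 0.170, 0.116 and 0.0836 CPM, and in their hippocampus 0.353, 0.186, 0.503, 0.422 and 0.385 CPM. Every cortical library lay far above every library of the other areas. The gene ranked 6 was enriched on a higher base, with 97, 94.8, 95.6, 106 and 103 CPM in the sham cortex against 3.73 to 9.48 CPM in the thalamus and 3.50 to 7.95 CPM in the hippocampus.

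The TBI rats were not used by the rule, and in them the enrichment could be tested. The cortex exceeded the thalamus for 147 of 150 genes (edgeR quasi-likelihood test, adjusted p under 0.05), with a median log2 difference of 2.24, where 33.3% of all genes tested were higher and 32.3% lower in the cortex. It exceeded the hippocampus for 143 of 150 genes, with a median log2 difference of 1.61, where 30.4% of all genes were higher and 29.5% lower. No gene of the 150 was called lower in the cortex in either comparison. Among the genes counted as higher, 8 against the thalamus and 6 against the hippocampus were too low for the count filter in that other area alone and entered through the cortex, so they had to differ. The genes that did not pass were those ranked 31, 139 and 149 against the thalamus and those ranked 8, 19, 45, 48, 114, 119 and 150 against the hippocampus, of which only the gene ranked 119 had a negative difference (-0.09). With the rat as a block, since the same rats gave both areas, all 150 genes were higher than in the thalamus and 146 higher than in the hippocampus, and the genes ranked 31, 139, 149, 19, 48 and 150 then passed. Without rat 8 and without the block, 140 genes were higher than in the hippocampus. The shares of all genes in the fits with the block or without rat 8 are not given here.

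The size of the enrichment differed between rats. The median ratio of cortex to the larger other area was 2.11, 3.30, 3.52, 3.63 and 4.23 in the sham animals, rats 1 to 5. It was 2.72, 2.14, 2.01, 3.08 and 2.57 in the injured animals, rats 6 to 10. Sham rat 1 lay among the TBI rats, while sham rats 2 to 5 lay above all 5 of them. These ratios used CPM without TMM scaling and took the hippocampal libraries of rats 3 and 8 as labelled. The hippocampal TMM factors of sham rats 4 and 5 were 0.569 and 0.609, against 1.06 to 1.23 in the other hippocampal libraries. Plain CPM thus gives these rats lower hippocampal levels, and higher ratios where the hippocampus is the larger other area. The order of the rats under TMM scaling was not examined. From group medians, the ratio in TBI rats had a median of 2.73 and was below the sham ratio for 127 genes, a direction that choosing the genes on sham ratios favours. It exceeded 1 in every TBI rat for 142 genes and 2 in every TBI rat for 48. The 8 genes with a ratio of 1 or less in some TBI rat were those ranked 31, 45, 46, 48, 119, 133, 139 and 149. Sham rat 1 had fewer genes above 1 than any TBI rat, at 133 of 150 against 146 to 149. In sham rats 2 to 5 all 150 genes were above 1.

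**Figure D1:**
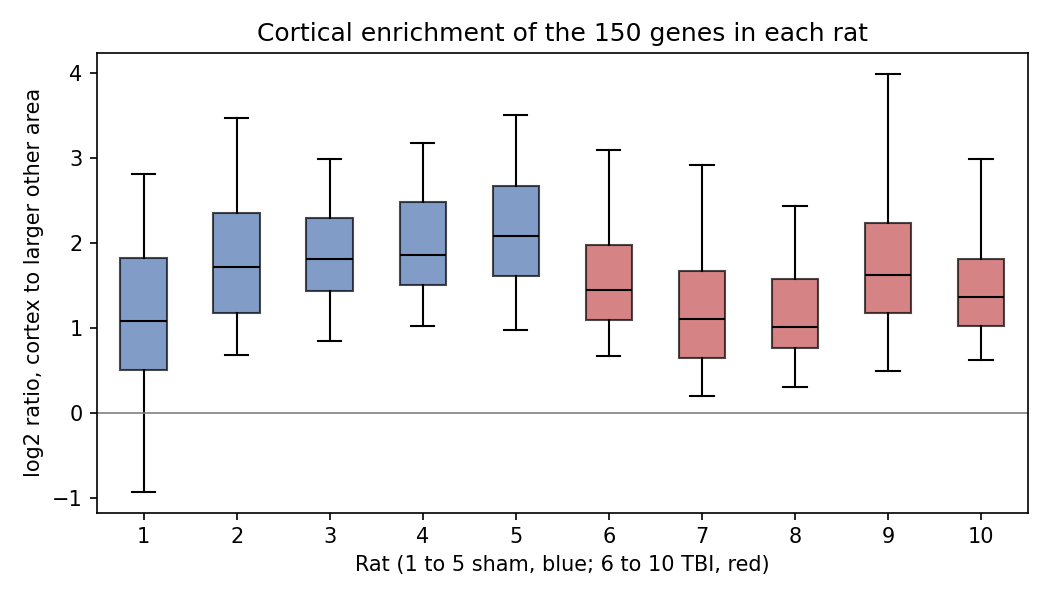
Log2 ratio of the cortical CPM to the larger of the thalamic and hippocampal CPM (0.5 added to each) for the 150 genes in each of 10 rats; boxes give quartiles, lines the median and whiskers the 5th and 95th percentiles. In CPM without TMM scaling, and with every library taken as labelled, the medians of sham rats 2 to 5 lie above those of the 5 TBI rats. Sham rat 1 lies among the TBI rats. The order under TMM scaling was not examined.

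In the perilesional cortex, calls among the 150 genes were mainly to a lower level after TBI, and most genes were not called. Of 150 tested, 57 were lower and 7 higher, where 11.6% of all genes tested were lower and 14.2% higher, and among the genes with at least 5 CPM in the sham cortex 15.9% were lower and 10.9% higher. Their median log2 fold change was -0.31 against -0.01 over all genes tested, with 107 negative and 43 positive values. At an unadjusted p under 0.05, 70 were lower and 14 higher, where 18.1% and 19.8% of all genes were. The falls were moderate, with a median of -0.58, and 3 passed a 2-fold change. In 37 genes all 5 TBI libraries lay below all 5 sham libraries, where 7.91% of all genes did, and in 1 gene all lay above, where 10.2% did. The rule used the sham libraries of this contrast and favours a fall, so these counts are a description.

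Both the scaling and the choice of rats moved these counts. Scaled by library totals alone, the median of all genes shifted to 0.21, and 20 of the 150 genes were lower and 11 higher, where 1.45% of all genes were lower and 23.1% higher. The median of the 150 genes lay 0.29 below that of all genes, a distance that rescaling the libraries leaves nearly as it is by construction. With the rule applied to the TBI rats instead, 91 genes were shared, and of those 150 genes 31 were lower and 30 higher with a median of 0.08. With the rule on all 10 rats, 49 were lower and 16 higher with a median of -0.19. The 91 genes chosen in both groups of rats had 30 lower and 5 higher with a median of -0.22.

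**Figure D2:**
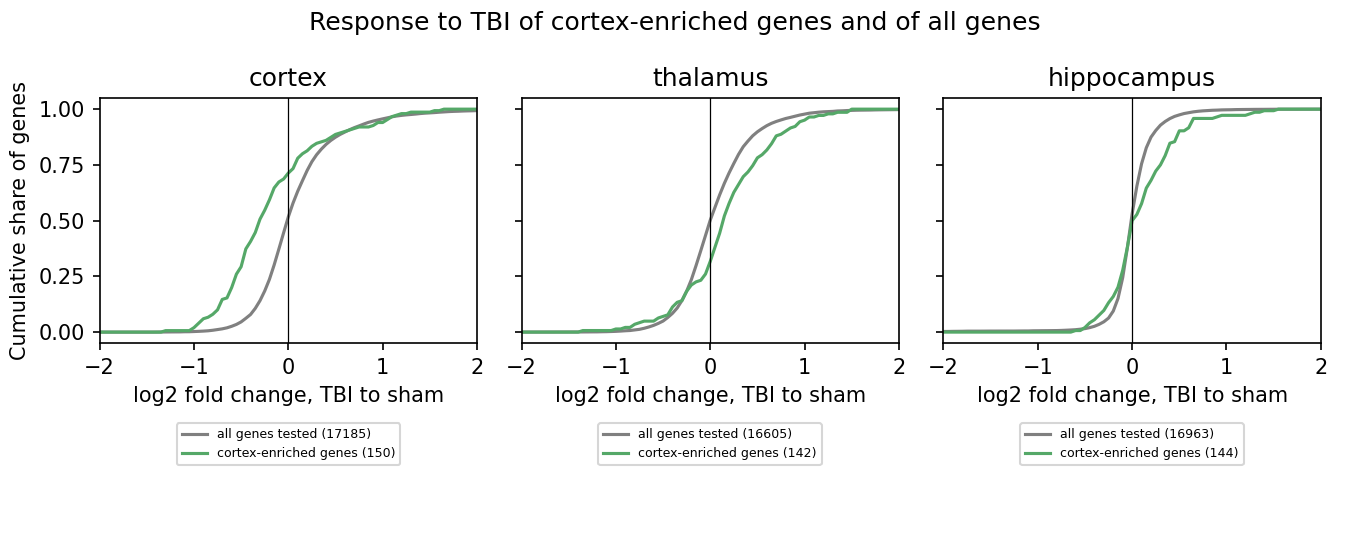
Cumulative share of genes (vertical axis) up to each log2 fold change of TBI to sham (horizontal axis) in each area, for the cortex-enriched genes tested (green) and all genes tested (grey). Over most of its range the green curve lies to the left of the grey one in the cortex (medians -0.31 and -0.01) and to its right in the thalamus (0.13 and -0.00), and the medians are close in the hippocampus (0.00 and -0.01).

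The falls were spread over the whole ranking. Of the genes ranked 1 to 50, 24 were lower and 0 higher (edgeR; 2 higher at an unadjusted p under 0.05). Among those ranked 51 to 100, 18 were lower and 5 higher, and among those ranked 101 to 150, 15 were lower and 2 higher, where 11.6% of all genes were lower and 14.2% higher. The median log2 fold changes of these groups of 50 were -0.39, -0.31 and -0.22. Genes with the hippocampus as the larger other area had 39 of 88 lower, and those with the thalamus had 18 of 62 lower, against 15.9% of the genes with at least 5 CPM. The difference between these classes was not tested.

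The deepest fall was that of ENSRNOG00000017539, ranked 34. Its cortical level was 6.94, 5.89, 5.49, 6.43 and 5.43 CPM in sham rats 1 to 5 and 2.15, 2.36, 2.3, 3.03 and 2.36 CPM in TBI rats 6 to 10. The groups did not overlap, with means of 6.04 ± 0.64 and 2.44 ± 0.34 CPM (SD, n = 5 each), a log2 fold change of -1.30 (SE 0.13) and an adjusted p of 1.08e-05 by edgeR. It stayed past the threshold with any 1 rat left out. In the thalamus its highest library held 0.310 CPM and it was not tested there, and in the hippocampus its log2 fold change was 0.13 (SE 0.31, edgeR adjusted p = 0.934), 0.34 without rats 3 and 8 and 0.16 without sham rats 4 and 5.

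ENSRNOG00000013681, ranked 88, was lower in the cortex and in the thalamus. Its cortical level was 38.6, 35.7, 64.9, 40.2 and 42.1 CPM in sham rats and 13.3, 23.0, 18.6, 30.5 and 24.0 CPM in TBI rats, without overlap (log2 -1.02, SE 0.22, edgeR adjusted p = 0.00725). In the thalamus it held 13.9, 6.54, 5.31, 11 and 12.8 CPM in sham rats and 6.03, 2.26, 2.21, 5.76 and 3.07 CPM in TBI rats. There the groups overlapped at sham rat 3 (log2 -1.36, SE 0.34, edgeR adjusted p = 0.0390), and the call held in 3 of 10 fits with 1 rat left out. Hippocampal levels were 4.75 to 9.02 CPM in sham and 4.68 to 8.44 CPM in TBI rats.

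The gene ranked 69 was among the more abundant ones. Its cortical level was 186, 194, 262, 228 and 228 CPM in sham rats and 79.6, 110, 103, 126 and 127 CPM in TBI rats, again without overlap (log2 -1.01, SE 0.13, edgeR adjusted p = 8.22e-05). The gene ranked 136 fell less but with the smallest adjusted p of the 150, from 42.7 ± 2.39 to 25.2 ± 1.70 CPM (SD, n = 5 each; log2 -0.76, SE 0.07, edgeR adjusted p = 6.64e-06). The gene ranked 140 varied little within groups, with 118, 121, 123, 114 and 117 CPM in sham rats and 67.1, 79.5, 73.3, 79.4 and 84.0 CPM in TBI rats. Its log2 fold change was -0.63 (SE 0.07, edgeR adjusted p = 3.84e-05).

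The gene ranked 13 held 270, 233, 229, 349 and 284 CPM in the sham cortex and 103, 108, 108, 164 and 209 CPM in the TBI cortex (log2 -0.98, SE 0.21, edgeR adjusted p = 0.00547). In the thalamus it stayed at 18.8 to 45.9 CPM in sham and 13.2 to 38.2 CPM in TBI rats, and in the hippocampus at 30.6 to 51.6 and 36.2 to 56.8 CPM, with overlap in both areas. The gene ranked 54 held 10.9, 14.4, 13.8, 10.1 and 10.5 CPM in the sham cortex and 6.74, 6.22, 5.07, 5.96 and 6.59 CPM in the TBI cortex (log2 -0.96, SE 0.12, edgeR adjusted p = 8.90e-05). Its log2 fold change was -0.00 in the thalamus and -0.00 in the hippocampus, where it was 0.16 without rats 3 and 8 and 0.27 without sham rats 4 and 5. The gene ranked 12, which may share reads with that ranked 15, held 9.87 to 14 CPM in the sham cortex and 4.48 to 8.73 CPM in the TBI cortex (log2 -0.94, SE 0.17, edgeR adjusted p = 0.00103), and at most 0.112 CPM in any hippocampal library.

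The most counted genes did not pass in any area. The gene ranked 94 held 2010.1 to 3818 CPM in the sham cortex and 1605 to 3305 CPM in the TBI cortex (log2 -0.31, SE 0.21, edgeR adjusted p = 0.296). The genes ranked 128, 139, 82 and 108 stood at log2 -0.14, -0.16, -0.27 and -0.33 in the cortex, with edgeR adjusted p of 0.562, 0.653, 0.107 and 0.310. Their groups overlapped. The share of cortical counts held by the 150 genes together overlapped as well, at 0.817 to 1.38% in sham and 0.888 to 1.48% in TBI rats.

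Among the most enriched genes, those ranked 1, 2 and 5 were called lower in the cortex. The gene ranked 1 had a log2 fold change of -0.47 (edgeR adjusted p = 0.0114). Its groups overlapped, with 18.6 CPM in sham rat 5 and 20.7 CPM in TBI rat 7 before TMM scaling. The gene ranked 2 held 18.1, 18.7, 22.8, 21.3 and 18.4 CPM in the sham cortex and 6.66, 10.2, 10.5, 16.3 and 11.4 CPM in the TBI cortex (log2 -0.85, SE 0.18, edgeR adjusted p = 0.00374). The gene ranked 5 held 26.8 to 28.7 CPM in sham and 16 to 22 CPM in TBI rats (log2 -0.54, SE 0.09, edgeR adjusted p = 0.000807). Those ranked 3, 4 and 6 did not pass, at log2 -0.41, -0.82 and -0.16 with adjusted p of 0.102, 0.157 and 0.283 by edgeR.

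The 7 genes higher in the cortex were those ranked 86, 92, 95, 97, 100, 110 and 148. ENSRNOG00000002278, ranked 92, was the only one of them without overlap. Its cortical level was 6.74, 8.02, 7.99, 7.73 and 7.85 CPM in sham rats and 12.8, 9.01, 8.62, 11.3 and 8.49 CPM in TBI rats (log2 0.39, SE 0.12, edgeR adjusted p = 0.0309). The call was lost without rat 3, 6 or 9. In the thalamus it held 2.88, 1.79, 1.95, 2.17 and 2.09 CPM in sham rats and 2.63, 3.91, 4.60, 4.56 and 5.44 CPM in TBI rats, where only TBI rat 6 lay within the sham range (log2 0.95, SE 0.22, edgeR adjusted p = 0.0303, held in 3 of 10 fits with 1 rat left out). The genes ranked 95 and 97 had nearly the same counts in all libraries and may share reads, as may those ranked 12 and 15 and those ranked 23 and 24.

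The rats differed within both groups. The number of the 150 genes below all 5 sham libraries in the cortex was 72, 82, 73, 56 and 57 in TBI rats 6 to 10, and the number above all of them was 25, 21, 19, 32 and 11. Against the same 4 libraries, those of sham rats 2 to 5, sham rat 1 had 75 genes below all of them, and TBI rats 6 to 10 had 90, 98, 93, 66 and 76. The median log2 difference of the 150 genes from the mean of these 4 libraries was -0.23 in sham rat 1 and -0.41, -0.44, -0.34, -0.12 and -0.27 in TBI rats 6 to 10. Sham rat 1 thus lay between TBI rats 9 and 10 by both summaries. Over the 57 genes called lower, which the group difference itself selected, the median was -0.03 in sham rat 1 and -0.71 to -0.38 in the TBI rats.

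**Figure D3:**
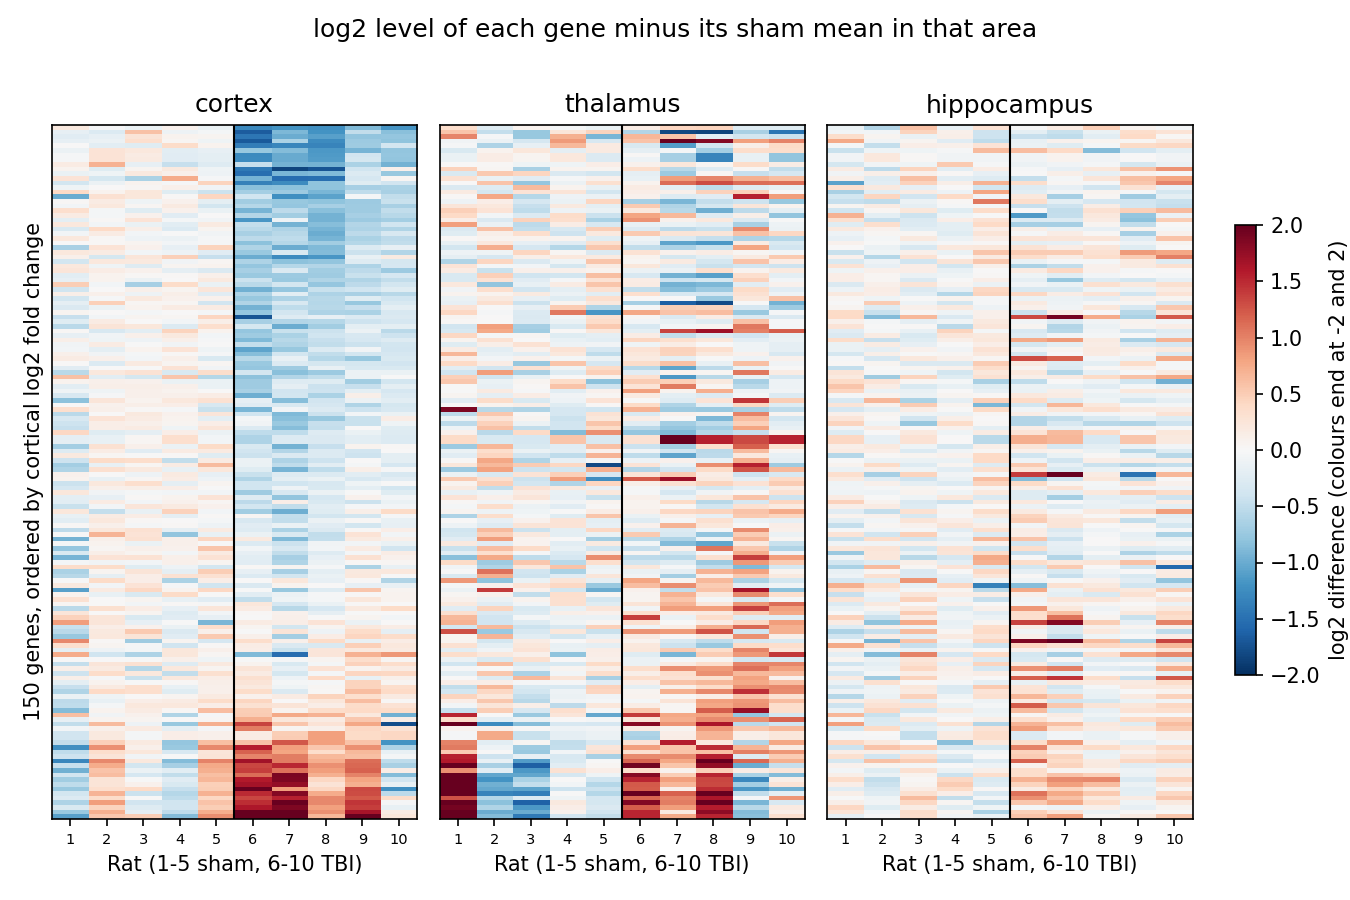
Log2 level (TMM-scaled CPM plus 0.5) of each of the 150 genes minus its sham mean in that area, for rats 1 to 10; rows are ordered by the cortical fold change and keep that order in each area. The upper rows are blue in the 5 TBI cortices, and the lowest rows, red in the cortex of TBI rats 6 to 9, are also red in the thalamus of sham rat 1.

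In the thalamus, few of the genes were called, at shares near those of all genes. Of 142 genes tested, 6 were higher (ranked 23, 24, 31, 49, 92 and 103) and 2 lower (ranked 88 and 138), where 3.77% of all genes tested were higher and 1.85% lower. At an unadjusted p under 0.05, 21 were higher and 5 lower, where 12.6% and 10.8% of all genes were. Their median log2 fold change was 0.13 against -0.00 over all genes, with 97 positive and 45 negative values, and choosing genes on a low sham thalamus favours a rise. The higher count was 0 without rat 3, 5, 7, 8 or 10 and 14 without rat 6, and the shares of all genes in those fits are not given here. The 57 genes lower in the cortex included 54 tested in the thalamus, of which 3 were higher and 2 lower, with a median of -0.00.

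ENSRNOG00000026128, ranked 49, was the only gene with all TBI libraries above all sham libraries in the thalamus, where 2.75% of all genes were. Its level was 2.33, 2.38, 2.08, 2.48 and 2.63 CPM in sham rats and 3.16, 4.98, 4.69, 5.66 and 4.56 CPM in TBI rats (log2 0.95, SE 0.18, edgeR adjusted p = 0.0217, held in 5 of 10 fits with 1 rat left out). In the cortex it held 11.2 to 19.7 CPM in sham and 15 to 20.8 CPM in TBI rats (log2 0.11, edgeR adjusted p = 0.595).

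The gene ranked 138 was the only gene with all TBI libraries below all sham libraries in the thalamus, where 2.65% of all genes were. Its level was 2.62, 3.18, 2.17, 2.56 and 4.01 CPM in sham rats and 1.63, 1.28, 1.90, 2.03 and 1.49 CPM in TBI rats. The log2 fold change was -0.81 (SE 0.22, edgeR adjusted p = 0.0464), held in 1 of 10 fits with 1 rat left out. In the cortex it was lower with no overlap (log2 -0.74, SE 0.11, edgeR adjusted p = 0.000356).

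The gene ranked 31 was called lower in the cortex and higher in the thalamus. Its cortical level was 98.1, 101, 140, 112 and 103 CPM in sham rats and 34.1, 71.1, 45.8, 66.0 and 62.7 CPM in TBI rats (log2 -0.99, SE 0.18, edgeR adjusted p = 0.00216). Its thalamic level was 15.7, 15.2, 13.0, 30.1 and 13.1 CPM in sham rats and 24.8, 67.0, 60.6, 29.5 and 33.5 CPM in TBI rats (log2 1.30, SE 0.31, edgeR adjusted p = 0.0315). The cortical call held in 10 of 10 fits with 1 rat left out and the thalamic call in 3 of 10. Sham rat 4 overlapped the TBI rats there, and in TBI rat 8 the thalamus exceeded the cortex. Its hippocampal log2 fold change was -0.03 (SE 0.20), -0.04 without rats 3 and 8 and -0.25 without sham rats 4 and 5.

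**Figure D4:**
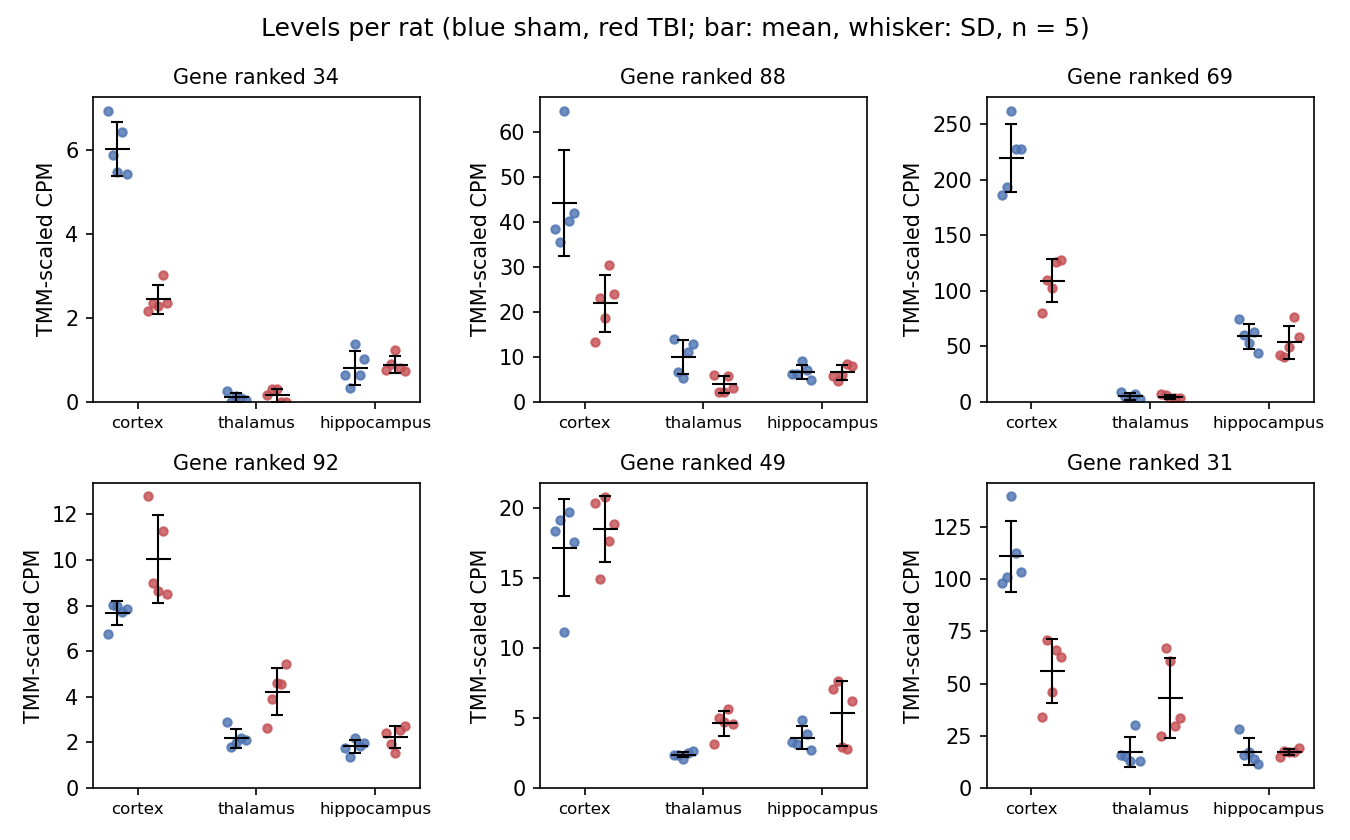
TMM-scaled CPM per rat in cortex, thalamus and hippocampus for the genes ranked 34, 88, 69, 92, 49 and 31 (blue sham, red TBI; bar mean, whisker SD, n = 5 rats per group). The cortical groups do not overlap for the genes ranked 34, 88, 69, 92 and 31, and the thalamic groups do not overlap for the gene ranked 49.

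In the hippocampus no gene was called. Of 144 tested, 0 were higher and 0 lower by edgeR, where 0.0% of all genes were called in either direction. DESeq2 also called 0 and 0 of them, where 0.0503% of all genes were higher and 0.0503% lower. At an unadjusted p under 0.05 edgeR gave 14 higher and 4 lower, where 5.22% and 3.22% of all genes were, and the rule favours a rise here as in the thalamus. In 0 genes did all TBI libraries lie above or below all sham libraries, where 0.519% and 0.466% of all genes did. The smallest adjusted p of the 150 was 0.505, and their median log2 fold change was 0.00 with 72 positive and 72 negative values. Without the libraries of rats 3 and 8, 3 genes were higher (ranked 33, 75 and 100) and 1 lower (ranked 85), where 1.45% of all genes were higher and 0.1% lower. At an unadjusted p under 0.05, 22 were then higher and 11 lower of 144, where 8.1% and 4.09% of all genes were. The log2 fold changes of the called genes in that fit were 0.66, 0.54, 0.78 and -0.82, with edgeR adjusted p of 0.0185, 0.0310, 0.0450 and 0.0436. Without those of sham rats 4 and 5 the counts were 0 and 0 by edgeR, with 11 of 144 genes at an unadjusted p under 0.05, where 5.45% of all genes were. Scaled by library totals, the median of all genes shifted to 0.38, and 11 of the 150 genes were higher and 0 lower, where 1.06% of all genes were higher and 0.265% lower.

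The largest hippocampal log2 fold changes, none past the threshold and in a direction that choosing genes on a low sham hippocampus favours, belonged to the genes ranked 119, 1, 45, 48 and 8, at 1.52, 1.35, 1.25, 1.2 and 0.93 (edgeR adjusted p from 0.505 to 0.730). Without rats 3 and 8 they were 1.84, 1.74, 1.63, 1.70 and 1.21 (edgeR adjusted p from 0.112 to 0.588), and without sham rats 4 and 5 they were 1.61, 1.41, 1.14, 1.12 and 0.87 (edgeR adjusted p from 0.850 to 0.894). The gene ranked 119 held 37, 19.6, 56.3, 36.3 and 50.9 CPM in sham rats and 138, 253, 58.6, 24.8 and 96.9 CPM in TBI rats. The gene ranked 45 held 1.77, 0.446, 2.21, 0.915 and 1.35 CPM in sham rats and 3.81, 5.99, 2.39, 0.617 and 3.55 CPM in TBI rats. The gene ranked 8 held 39.7, 19.5, 42.7, 29.6 and 30.3 CPM in sham rats and 82.8, 132, 34.9, 10.9 and 49.8 CPM in TBI rats. In these genes TBI rats 6, 7 and 10 lay above all sham rats and TBI rat 9 lay in the lower part of the sham range or below it.

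Whether the response in the cortex differed from that in another area was tested with an interaction term, which contains the sham contrast used by the rule. Against the thalamus, 0 genes had a higher and 4 a lower response in the cortex (edgeR; 0 and 33 at an unadjusted p under 0.05, where 6.84% and 2.62% of all genes were), where 0.0676% of all genes were lower and 0.372% higher. They were those ranked 31, 24, 23 and 50, at log2 differences of -2.24, -1.80, -1.79 and -1.73. Against the hippocampus, 0 had a higher and 13 a lower response in the cortex (edgeR; 5 and 48 unadjusted, where 8.73% and 10.2% of all genes were), where 1.59% of all genes were lower and 1.45% higher. They were ranked 1, 13, 34, 40, 62, 63, 65, 69, 74, 114, 134, 136 and 140. All 13 were among the 57 lower in the cortex. With the rat as a block, 19 genes had a lower response, 12 of them among those 13. Without the hippocampal libraries of rats 3 and 8 the count was 6, and without those of sham rats 4 and 5 it was also 6. With a rat left out of both areas, the count was 3 without rat 2, 4 without rat 4 or 8, 5 without rat 3, 6 without rat 6, 7 without rat 7 and 8 without rat 10.

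The genes ranked 23 and 24, which may share reads, showed the contrast with the thalamus. The gene ranked 23 held 21.7, 22.1, 25.2, 31.2 and 23.7 CPM in the sham cortex and 15.8, 20.1, 20.1, 21.2 and 20.1 CPM in the TBI cortex (log2 -0.35, SE 0.11, edgeR adjusted p = 0.0315). In the thalamus it held 4.70, 2.70, 2.63, 5.35 and 2.72 CPM in sham rats and 4.38, 15.2, 11.1, 9.44 and 11.1 CPM in TBI rats (log2 1.5, SE 0.31, edgeR adjusted p = 0.0239). TBI rats 7 to 10 lay above all sham rats, and TBI rat 6 lay among them. With 1 rat left out, the cortical call held in 6 of 10 fits and the thalamic call in 5 of 10. Against the hippocampus, the gene ranked 114 held 11.3 to 15.5 CPM in the sham cortex and 7.01 to 10.6 CPM in the TBI cortex. In the hippocampus it held 2.99, 3.98, 4.56, 3.8 and 6.48 CPM in sham rats and 6.21, 6.21, 5.32, 8.05 and 7.58 CPM in TBI rats (log2 0.63, SE 0.18, edgeR adjusted p = 0.505). The gene's log2 fold change there was 0.73 without rats 3 and 8 (edgeR adjusted p = 0.0983). It was 0.80 without sham rats 4 and 5 (edgeR adjusted p = 0.850). Its response differed by -1.27 (SE 0.23, edgeR adjusted p = 0.00449), by -1.33 without the hippocampal libraries of rats 3 and 8 (edgeR adjusted p = 0.0117) and by -1.45 without those of sham rats 4 and 5 (edgeR adjusted p = 0.00537).

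The 150 genes had a wide spread between sham rats, which the rule read. Their median SD of log2 levels among the 5 sham cortices was 0.26, against 0.16 for the 11471 genes with at least 5 CPM, and it exceeded 0.5 for 25 of them, against 0.976% of those genes. The most variable was the gene ranked 9, at 4.16, 22.0, 12.9, 5.85 and 22.5 CPM in the sham cortex. Over the 10 cortical libraries, 17 other genes of the 150 had a Pearson correlation above 0.8 with it, a share of 11.4% against 0.741% of the 11470 genes compared. These points share libraries and scaling, and the genes were grouped after their values were seen, over libraries that include the TBI rats, so the choice itself fixes part of their common response.

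The response of these 18 genes is set beside that of the other 132 with no test of the difference. In the cortex 3 of them were higher (ranked 86, 100 and 110) and 0 lower by edgeR, with a median log2 fold change of 0.98, where 14.2% of all genes were higher and 11.6% lower, while 4 of the other 132 were higher and 57 lower, with a median of -0.36. Their median log2 level relative to the sham median was -0.57, 0.69, 0, -0.36 and 0.76 in the cortex of sham rats 1 to 5 and 1.54, 1.56, 0.65, 1.10 and -0.27 in that of TBI rats 6 to 10. TBI rats 8 and 10 lay within the sham range. In the thalamus the same median was 2.58 in sham rat 1, -0.66 to 0.07 in the other sham rats, and 1.67, 1.13, 1.88, -0.23 and 0.49 in TBI rats. Sham rat 1 thus had the highest thalamic level of all 10 rats. In the hippocampus it was between -0.10 and 0.22 in sham rats, with the highest value in the library labelled sham rat 3, and between -0.06 and 0.60 in TBI rats. Over all hippocampal libraries, the median log2 fold change was 0.36 for the 18 genes and -0.03 for the others tested. The genes ranked 33 and 100, called higher there without rats 3 and 8, are among the 18.

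The gene ranked 33 was the most abundant of these 18 genes by cortical share and shows the swing between rats. It held 43.4, 134, 130, 50.7 and 177 CPM in the sham cortex and 645, 393, 147, 384 and 108 CPM in the TBI cortex (log2 1.64, SE 0.61, edgeR adjusted p = 0.0819). In the thalamus sham rat 1 held 297 CPM, against 12.0 to 25.1 CPM in the other sham rats and 18.1 to 95.7 CPM in TBI rats. The gene ranked 100, which passed in the cortex, held 9.91, 15.8, 12.3, 8.42 and 16.3 CPM in sham and 31.3, 36.2, 24.2, 29.1 and 15.8 CPM in TBI rats (log2 1.12, SE 0.24, edgeR adjusted p = 0.00525). TBI rat 10 lay within its sham range as well. The number of the 150 genes higher in the cortex was 16 without rat 10 against 7 with it, and the share of all genes without rat 10 is not given here.

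**Figure D5:**
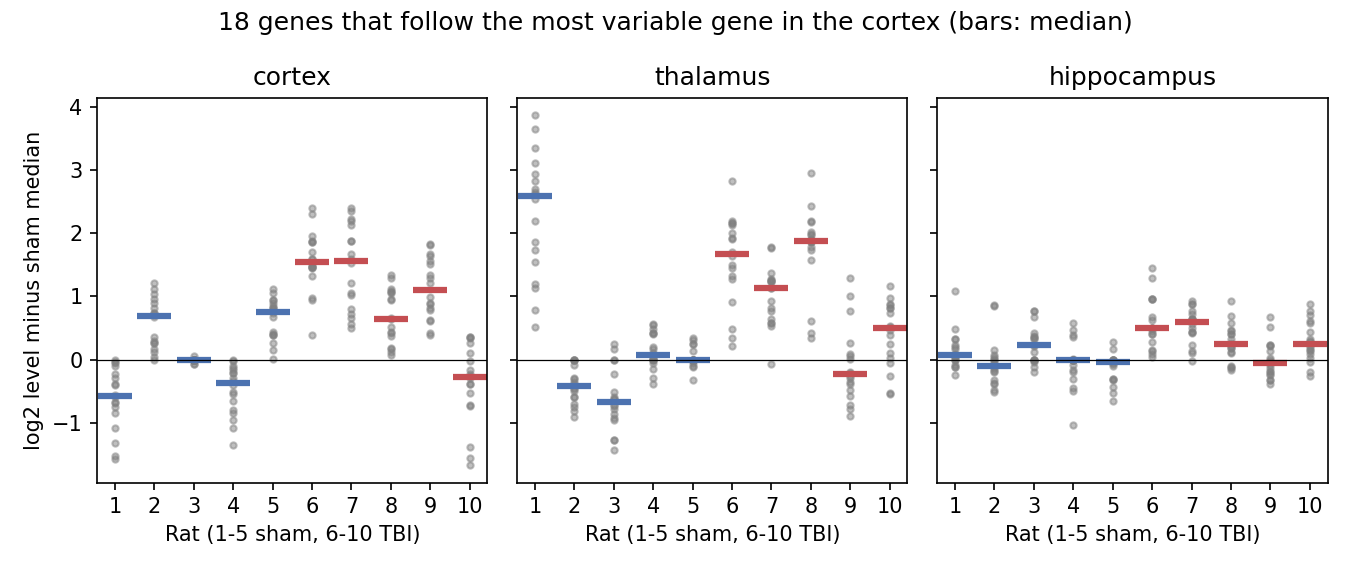
Log2 level of 18 genes relative to each gene's sham median in that area (grey points), for rats 1 to 10, with the median over the genes as a bar (blue sham, red TBI). Bars reach 1.56 in the TBI cortex and 2.58 in the thalamus of sham rat 1, and stay within -0.10 to 0.60 in the hippocampus.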

How the data were processed

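The authors aligned polyadenylated RNA reads with STAR to Rnor_5.0 and deposited raw read counts per Ensembl gene, 1 table per area; the counting tool and strand setting are not given in the sources used here. Total counts were 21992859 to 31799879 per library. Columns were matched to rats by their titles, and 0 columns were left unused. The study left out 2 sham hippocampal libraries for low alignment, without giving their rats; all were kept here. The labels give 1 sequencer for all areas, the study's methods another for the thalamus. The members, lists and tests were chosen with earlier results of these data known.

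Genes were tested with edgeR 4.0.16 (R 4.3.3; filterByExpr with a minimum count of 10 and a minimum total of 15, TMM, robust quasi-likelihood test, Benjamini-Hochberg adjustment over all genes tested, threshold 0.05), TBI against sham within each area. Interactions and the cortex against another area were fitted over the libraries of both areas. The same rats gave all areas, so a fit with the rat as a block was an alternative; DESeq2 1.42.0, other scalings, filters and rules were others. The edgeR steps were tested on simulated data. Genes printed by level were those with non-overlapping groups among the calls, the largest ratios and the smallest interaction p; others printed were chosen after their values were seen. Because 0 identifiers matched a gene name, the chosen marker and channel lists could not be scored, no sequence is shown, and at most 2 identifiers per direction are printed. No table of the authors' own comparisons was used.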

Additional observations from a re-analysis of the deposited data

Results flagged for a closer look

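In 13 of 138 groups of 5 libraries checked, 1 library lay far from the others; chance flags about 1 group in 20. In the sham cortex these were rat 1 for the genes ranked 92 (6.74 CPM) and 134 (130 CPM), both lowest, and rat 3 for the genes ranked 88 (64.9 CPM, highest) and 49 (11.2 CPM, lowest). In the TBI cortex they were rat 9 for the gene ranked 34 (3.03 CPM, highest), rat 10 for the gene ranked 138 (5.57 CPM, highest) and rat 6 for the genes ranked 23 and 24 (15.8 CPM each, lowest). In the thalamus they were sham rat 4 for the gene ranked 31 (30.1 CPM, highest), sham rat 5 for the gene ranked 63 (3.39 CPM, lowest) and TBI rat 6 for the gene ranked 50 (4.0 CPM, lowest). In the hippocampus the gene ranked 138 was highest in sham rat 5 (2.95 CPM) and in TBI rat 6 (1.62 CPM).

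The response to TBI differed between areas by the interaction test for 4 genes against the thalamus and 13 against the hippocampus. The cortical minus the thalamic response was -2.24, -1.80, -1.79 and -1.73 on the log2 scale for the genes ranked 31, 24, 23 and 50. The cortical minus the hippocampal response was -0.58, -1.27, -0.92, -0.54 and -1.47 for the genes ranked 140, 114, 63, 134 and 34. It was -0.77, -0.68, -0.64 and -0.47 for those ranked 74, 62, 136 and 65, and -1.10, -1.86, -0.90 and -0.98 for those ranked 13, 1, 69 and 40. The rule that chose the genes used the sham side of these contrasts.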

How the results depend on the processing

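In the cortex, the 7 higher genes became 12 with DESeq2, 3 in 1 fit for all areas, 11 with library totals, 4 with the rule on TMM-scaled CPM, 30 with the rule on TBI rats and 16 with the rule on all 10 rats, and 4 to 16 with 1 rat left out (4 without rat 3 or 9, 16 without rat 10). The 57 lower became 37 in 1 fit, 20 with library totals, 31 with the rule on TBI rats and 44 to 63 with 1 rat left out. In the thalamus, the 6 higher became 13 with DESeq2, 14 in 1 fit, 11 with the rule on all 10 rats and 0 to 14 with 1 rat left out. The 2 lower became 6 in 1 fit, 1 with no filter, 1 with a minimum of 1 CPM, 1 with 100 members, and 0 to 2 with 1 rat left out (0 without rat 1, 3, 4, 5, 7, 8 or 10, 1 without rat 2). In the hippocampus, 3 were higher and 1 lower without rats 3 and 8, and 11 higher with library totals. The interaction with the thalamus gave 11 in place of 4 with DESeq2 and 3 to 5 with 1 rat left out; that with the hippocampus gave 8 in place of 13 with no filter, 6 without sham rats 4 and 5, 6 without rats 3 and 8, and 3 to 14 with 1 rat left out (3 without rat 2, 4 without rat 4 or 8, 5 without rat 3, 6 without rat 6, 7 without rat 7, 8 without rat 10). The cause was not tested. Except where stated above, the shares of all genes in these alternative fits are not given, so a changed count may follow that of all genes. The rules on all 10 rats, library totals and 1 identifier per near-identical pair (6 higher and 55 lower in the cortex, 5 and 2 in the thalamus) were added after seeing the data.

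With the rat as a replicate block, the pairing coming from the same animals, the interactions gave 4 and 19 genes, and in TBI rats the cortex was higher for 150 genes against the thalamus and 146 against the hippocampus. Without the block, the 147 and 143 genes became 144 to 146 and 140 to 145 with 1 rat left out. For the named genes, 669 alternative values kept direction and side of the threshold, 64 lost and 6 gained the call, and 28 changed sign, none of them called before or after. These values leave out library totals and the fits without the hippocampal libraries of rats 3 and 8 or of sham rats 4 and 5. In the hippocampus, signs also changed in the fits without these libraries. Without rats 3 and 8 the log2 fold change became 0.14 (ranked 88) and 0.16 (54). Without sham rats 4 and 5 it became 0.27 (54), 0.091 (125) and 0.28 (138). Among the counted values, the changes of sign were in 1 fit for all areas for the gene ranked 54 in the hippocampus (0.00073). The others came with 1 rat left out. The log2 fold change then ran from -0.013 to 0.18 for the gene ranked 49 in the cortex, and in the thalamus from -0.28 to 0.25 (ranked 69) and -0.14 to 0.17 (54). In the hippocampus it ran from -0.083 to 0.49 (34), -0.14 to 0.11 (88), -0.14 to 0.22 (31), -0.018 to 0.16 (13), -0.25 to 0.22 (54), -0.36 to 0.069 (125) and -0.58 to 0.16 (138). Levels near 0 CPM in the other areas rest on few counts.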
